A study of Mus musculus with 12 samples.

Results

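Cholesterol and fatty acid synthesis were followed through a listed group of 30 mouse genes that encode the enzymes of both pathways, the Srebf proteins that control them and a sterol carrier. Membership follows a list of names rather than a cutoff on measured values, although the list was drawn up with earlier results of these data known. Of the 30 genes, 29 were measured on the array by a probe set with a single gene symbol, out of 19938 genes in all, and Acat2 was not analysed here. Where a gene had several such probe sets, the one with the highest mean over the 12 arrays stood for it. By role, 6 of the 29 genes act in the mevalonate and isoprenoid steps, 9 in the making of squalene and the sterol steps after it, and 5 in Srebf control. Of the others, 1 carries sterols, 4 make saturated fatty acids and 4 are desaturases.

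Cells build cholesterol from acetyl-CoA through mevalonate, isoprenoid units, squalene and lanosterol, and build fatty acids from the same acetyl-CoA through malonyl-CoA. Both pathways are driven by the Srebf transcription factors, which are made as membrane proteins of the endoplasmic reticulum. Insig proteins hold the complex of Srebf and its escort Scap there while sterols are plentiful, and when sterols run low Scap takes Srebf to the Golgi, where proteases release its active part. In embryonic cells, cholesterol is a component of new membrane and is joined to Hedgehog ligands, and fatty acids supply membrane phospholipids.

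All RNA came from cells of D3, a mouse embryonic stem (ES) cell line used here as 1 clone, in 4 groups of 3 arrays. The first group was undifferentiated ES cells at day 0, grown in a medium with fetal bovine serum. The second was untreated embryoid bodies (EBs) at day 4, which are aggregates of differentiating ES cells, formed in bacteriological dishes without the cytokine LIF. The third and the fourth were day 4 EBs that received the solvent DMSO or 5 micromolar ATRA (all-trans retinoic acid, a hormone made from vitamin A) for 12 h. The sources leave it unclear if those 12 h came inside or after the 4 days, so the DMSO and ATRA groups may be of the same age as the untreated EBs or older. The labels call the samples of a group biological replicates without naming separate cultures, and the p-values measure only the spread between these samples. The number of arrays limits the precision.

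All values below are log2 probe set values, changes are differences of log2 group means ± SE with n = 3 arrays a group, and a gene is said to be called where its limma p, adjusted by Benjamini-Hochberg over all 19938 genes, was under 0.05. The array medians lay between 7.76 and 7.86, and replicate arrays correlated at 0.992 to 0.997. The retinoic acid target Cyp26a1 served as a check of the labels. Its group means were 7.84 in ES cells, 9.06 in EBs, 9.82 with DMSO and 11.58 with ATRA. The pluripotency gene Pou5f1 stood at 13.33 in ES cells and 13.39 with ATRA. It was not called in any comparison, so it does not tell the groups apart. In bulk RNA of mixed aggregates, fewer cells of a type and less RNA per cell cannot be told apart, which holds for every result below. Visceral endoderm markers averaged 8.37 to 8.42 over the ES arrays, 9.70 to 9.92 over the EB arrays, 10.12 to 10.34 with DMSO and 9.91 to 10.10 with ATRA. Fibroblast markers averaged 9.16 to 9.17 in ES arrays and 7.94 to 8.07 in EB arrays.

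Promoter sequences were available for 22 of the 29 measured genes in the RefSeq table of assembly GRCm38.p6, as windows from 250 bases before to 50 bases after a transcript's start. These windows are shown for 4 genes with changes described below. They hold matches to the motifs through which the Srebf proteins and their partners are known to act, or hold no match. Hmgcs1, which encodes the synthase that makes HMG-CoA, lies on the plus strand and its window is chr13:119690101-119690400. Lss, the gene of lanosterol synthase, lies on the plus strand with the window chr10:76531355-76531654. Tm7sf2, the gene of a sterol reductase, lies on the minus strand with the window chr19:6067801-6068100. Elovl6, the gene of the elongase that lengthens palmitate, lies on the plus strand with the window chr3:129532136-129532435. Each window is written 5′ to 3′ on the gene's own strand, in lower case with every match to a motif in capitals.
Hmgcs1: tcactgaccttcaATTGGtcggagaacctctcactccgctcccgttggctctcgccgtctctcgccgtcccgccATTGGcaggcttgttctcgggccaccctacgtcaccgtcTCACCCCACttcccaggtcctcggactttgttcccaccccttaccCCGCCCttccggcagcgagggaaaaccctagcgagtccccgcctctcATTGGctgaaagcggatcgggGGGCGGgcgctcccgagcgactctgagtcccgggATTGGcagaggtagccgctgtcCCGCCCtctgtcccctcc
Lss: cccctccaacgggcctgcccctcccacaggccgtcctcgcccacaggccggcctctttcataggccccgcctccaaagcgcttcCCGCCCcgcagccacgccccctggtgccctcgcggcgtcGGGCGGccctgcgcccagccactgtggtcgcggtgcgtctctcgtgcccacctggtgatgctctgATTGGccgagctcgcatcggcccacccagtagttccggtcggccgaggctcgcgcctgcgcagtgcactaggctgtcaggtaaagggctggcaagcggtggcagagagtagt
Tm7sf2: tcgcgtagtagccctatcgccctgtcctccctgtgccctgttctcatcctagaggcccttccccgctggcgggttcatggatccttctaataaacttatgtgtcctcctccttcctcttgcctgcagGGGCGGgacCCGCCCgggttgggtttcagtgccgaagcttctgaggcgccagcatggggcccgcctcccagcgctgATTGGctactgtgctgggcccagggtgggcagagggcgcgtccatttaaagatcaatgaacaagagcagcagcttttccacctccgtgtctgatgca
Elovl6: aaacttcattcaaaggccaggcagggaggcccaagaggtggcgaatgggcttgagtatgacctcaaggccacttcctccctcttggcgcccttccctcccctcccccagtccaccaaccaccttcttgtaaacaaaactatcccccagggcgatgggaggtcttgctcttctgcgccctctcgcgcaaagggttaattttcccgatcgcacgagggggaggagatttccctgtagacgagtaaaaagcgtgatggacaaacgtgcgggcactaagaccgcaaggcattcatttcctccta

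The 4 motifs searched, on both strands, were the sterol regulatory element TCACNCCAC, the NF-Y box CCAAT, the E-box CACGTG and the GC box GGGCGG. The sterol regulatory element was present in the window of 1 of the 22 genes, Hmgcs1, where it reads TCACCCCAC and runs from 137 to 129 bases before the start, against 1.44% of the 27025 genes with a window. The NF-Y box, bound by the heterotrimer that works beside Srebf at sterol genes, was present in 18 of 22 genes, against 41.1% of those genes. The GC box, bound by Sp1, was present in 18 of 22 as well, against 38.2% of genes. The E-box was present in 4 of 22, in Dhcr7, Hsd17b7, Insig1 and Scap, against 8.09% of genes. A gene counted where any of its windows held a match, with 30 windows for the 22 genes and 32851 for the 27025. The 27025 genes were not limited by expression level, so these shares are not matched to the 22 genes in that respect. In the windows printed above, Hmgcs1 holds 4 NF-Y boxes and 3 GC boxes, Lss and Tm7sf2 each hold 1 NF-Y box and 2 GC boxes, and Elovl6 holds none of the 4 motifs. A match is a string of letters and not a bound site, and no binding was measured here. Only these exact strings were searched in these short windows, so a gene without a match may still hold a variant or more distant element.

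All 29 genes were well expressed on this array in the sense that each had a mean over the 12 arrays above the median gene (8.35). The lowest of them, the sterol transfer protein gene Stard4, lay at the 70.9th percentile of genes, and 14 of the 29 lay above the 90th percentile. The highest was Scd2, a stearoyl-CoA desaturase gene, with a mean of 13.63, where values can be compressed on an array whose highest value was 14.74. Levels of different probe sets are not comparable as amounts of RNA, so only changes of the same probe set are compared from here on.

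Day 4 EBs were compared with ES cells to read the step out of the undifferentiated state. Of the 29 genes, 18 rose and 4 fell in EBs, and most of those that rose were enzymes of sterol synthesis. This is 62.1% higher and 13.8% lower, against 17.8% higher and 16.9% lower over all genes tested, and against 28.5% and 20.3% over the 9969 genes with a mean above the median. The median change was 0.17, where that of all genes was -0.0004. The 3 and 3 arrays did not overlap in 19 of the 29 genes with EBs higher and in 4 with EBs lower, against 21.2% and 20.1% of all genes. The changes were small: 2 of the called genes, Tm7sf2 and Lss, reached 1.5-fold and none reached 2-fold.

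Enzymes of sterol synthesis made up most of the rise, with 11 higher and 1 lower among 15. Tm7sf2, which reduces a double bond of the sterol ring, had the largest change of the 29 genes. Its 3 ES arrays read 9.76, 9.62 and 9.70 and its EB arrays 10.55, 10.58 and 10.62. Every EB array lay well above every ES array, and the rise was 0.89 ± 0.05, or 1.86-fold (adjusted p = 5.23e-08). Lss, whose product closes squalene epoxide into lanosterol, read 10.67, 10.75 and 10.76 in ES cells and 11.44, 11.23 and 11.31 in EBs. Here too the groups were apart, with a rise of 0.60 ± 0.06, or 1.52-fold (adjusted p = 7.41e-06).

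The other squalene and sterol enzymes moved less, and 8 of these 9 genes were called higher, with a median change of 0.32. Sqle, the squalene epoxidase gene and a rate-controlling step, ranged from 11.25 to 11.29 in ES cells and from 11.63 to 11.64 in EBs and rose by 0.37 ± 0.04. Cyp51, which encodes the lanosterol demethylase, ranged from 9.85 to 10.23 and from 10.34 to 10.57 and rose by 0.44 ± 0.09. The wide range of Cyp51 in ES cells makes its size the least certain of the called genes, although the groups did not overlap. The squalene synthase gene Fdft1 rose by 0.32 ± 0.05, from a range of 12.41 to 12.55 to one of 12.76 to 12.81. Hsd17b7, a keto-sterol reductase gene, rose by 0.31 ± 0.05, and Dhcr7, whose enzyme makes cholesterol from its last precursor, by 0.26 ± 0.05. Nsdhl, a sterol dehydrogenase gene, rose by 0.26 ± 0.07. Ebp, a sterol isomerase gene, was the one not called, at a change of 0.15 ± 0.06 (adjusted p = 0.0615), with arrays that did not overlap.

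In the mevalonate and isoprenoid steps, 3 of 6 genes rose and 1 fell. Hmgcs1, whose promoter holds the sterol regulatory element shown above, rose by 0.38 ± 0.05 from a range of 11.62 to 11.74 in ES cells to one of 11.97 to 12.09 in EBs. The mevalonate kinase gene Mvk rose by 0.29 ± 0.05, from 9.68 to 9.70 up to 9.94 to 10.04. The mevalonate diphosphate decarboxylase gene Mvd rose by 0.27 ± 0.07. Between these enzymes acts phosphomevalonate kinase, and its gene Pmvk went the other way: it ranged from 10.22 to 10.29 in ES cells and reached at most 10.10 in EBs, and it fell by 0.21 ± 0.05 on the log2 scale (adjusted p = 0.00561). Fdps, the farnesyl diphosphate synthase gene, was not called, at 0.09 ± 0.05 (adjusted p = 0.228). The isopentenyl diphosphate isomerase gene Idi1 was not called by its main probe set, at 0.15 ± 0.06 (adjusted p = 0.0859), while its other single-symbol probe set was called higher at 0.24 (adjusted p = 0.0252 over all probe sets). Stard4, which moves cholesterol between membranes, rose by 0.37 ± 0.06, from 9.65 to 9.85 up to 10.04 to 10.14.

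All 5 genes of Srebf control were called in EBs, 4 of them higher and 1 lower. Srebf2, the factor that chiefly drives cholesterol genes, read 11.25, 11.28 and 11.30 in ES cells and 11.75, 11.71 and 11.71 in EBs. These are tight and separate groups, and the rise of 0.44 ± 0.04, or 1.36-fold, had an adjusted p of 2.97e-06. Srebf1, the factor that chiefly drives fatty acid genes, read 10.17, 10.26 and 10.30 in ES cells and 10.46, 10.34 and 10.38 in EBs. The nearest arrays of the groups, 10.30 and 10.34, were close, and the rise of 0.15 ± 0.05 passed narrowly (adjusted p = 0.0415).

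The retention and escort genes of the same complex did not share a direction. Insig1, itself a known Srebf target, read 11.50, 11.39 and 11.49 in ES cells and 11.74, 11.67 and 11.70 in EBs, a rise of 0.24 ± 0.05. Insig2 read 10.43, 10.43 and 10.32 in ES cells and 10.54, 10.61 and 10.48 in EBs, a rise of 0.15 ± 0.05 (adjusted p = 0.0492). Scap read 11.03, 11.15 and 11.12 in ES cells and 10.83, 10.86 and 10.83 in EBs. The escort gene was thus higher in every ES array, and it fell by 0.26 ± 0.05 on the log2 scale (adjusted p = 0.00106). The arrays measure RNA and carry no reading of Srebf cleavage.

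The fatty acid genes were split in this step. Acly, which makes cytosolic acetyl-CoA from citrate for both pathways, rose by 0.17 ± 0.05 (adjusted p = 0.0183). Acaca, the acetyl-CoA carboxylase gene and the committed step of fatty acid synthesis, fell by 0.33 ± 0.05 on the log2 scale and was 1.26-fold lower in EBs (adjusted p = 0.000172). A second probe set of Acaca gave -0.45 (adjusted p = 0.000176 over all probe sets). Fasn, the fatty acid synthase gene, changed by 0.04 ± 0.05 with a 95% interval of -0.07 to 0.15, and Elovl6 by -0.12 ± 0.06 (adjusted p = 0.125), and neither was called. Among the desaturases, Scd1 rose by 0.14 ± 0.05 (adjusted p = 0.0392) and Fads2, the first desaturase of polyunsaturated fatty acid synthesis, fell by 0.12 ± 0.04 on the log2 scale (adjusted p = 0.0496). Scd2 at 0.00 ± 0.04 and Fads1, a later desaturase of the same route, at -0.02 ± 0.04 were not called. Scd1 and Scd2 are closely related copies, and how far their probes tell them apart was not examined here.

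Of the 22 calls in this step, 13 of the 18 higher and 3 of the 4 lower held under all 23 alternatives. Calls near the threshold could be lost when a single array was left out. A DMSO or ATRA array enters this comparison only through the estimate of spread shared by all groups. Leaving one out kept the change as it was and moved only the p. Acly lost its call without EB 1 (0.12, adjusted p = 0.072). Srebf1 lost it without any one of ES 1, ES 2, EB 1, EB 3, DMSO 2 or the 3 ATRA arrays (changes of 0.11 to 0.16). Insig2 lost it without any one of ES 2, ES 3, EB 1, EB 2, DMSO 1, DMSO 2 or the 3 ATRA arrays (0.12 to 0.17). Scd1 lost it without any one of ES 2, ES 3, EB 2, EB 3, DMSO 1, DMSO 2 or the 3 ATRA arrays (0.11 to 0.15), and Fads2 lost it without any single array but ES 3 (-0.13 to -0.10). Without ES 1, Ebp and Idi1 were called higher (0.21 and 0.20). Centring each array on its median moved the share of called genes that were higher from 51.38% to 66.54% over all genes, and gave 21 of the 29 higher and 3 lower.

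**Figure D1:**
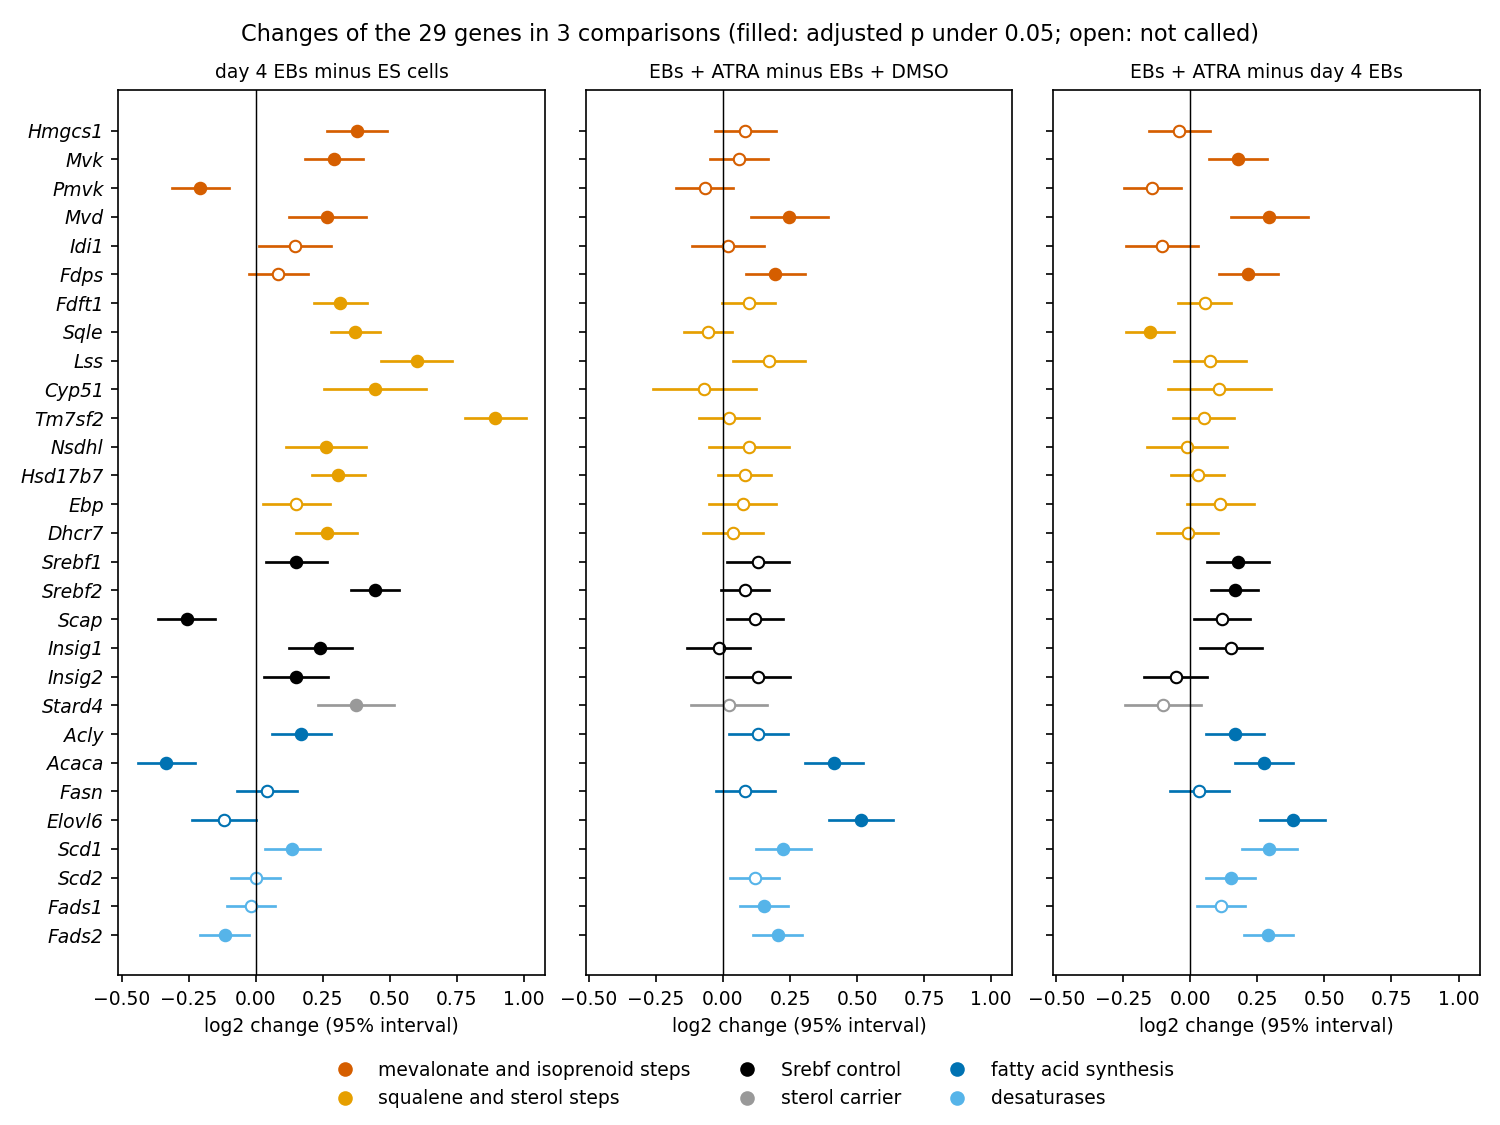
Log2 changes (x axis) of the 29 genes (rows, coloured by role) for day 4 EBs minus ES cells, ATRA minus DMSO and ATRA minus day 4 EBs, with 95% intervals from the fit, n = 3 arrays a group. Filled points were called at an adjusted p under 0.05. In the left panel 18 points are called above 0 and 4 below, led by Tm7sf2 at 0.89. In the middle panel 7 are called, all above 0, led by Elovl6 at 0.52.

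Genes outside the 29 that act beside them were described in the same step from lists of related genes, shown in the plot of shares called. Of 15 other sterol and Srebf control genes, 7 rose and 1 fell, or 46.7% and 6.67%, against 17.8% and 16.9% of all genes. Msmo1, a further enzyme of the sterol steps, rose by 0.39 ± 0.05. Sp1, whose protein binds the GC box, rose by 0.27 ± 0.05, and Nfyc, a subunit of the NF-Y complex, fell by 0.30 ± 0.04 on the log2 scale. Of 14 genes of sterol uptake, storage and efflux, 6 rose and 3 fell, or 42.9% and 21.4%. The lipoprotein receptor gene Vldlr rose by 1.05 ± 0.06, or 2.07-fold, and the lysosomal cholesterol exporter gene Npc1 by 0.64 ± 0.04. Cav1, which encodes the cholesterol-binding coat protein of caveolae, fell by 2.52 ± 0.07 on the log2 scale.

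The lists of other fatty acid genes held more genes that fell than rose in EBs. Of 31 other fatty acid and lipid synthesis genes, 8 rose and 11 fell, or 25.8% and 35.5%. All genes gave 17.8% and 16.9%, and genes with a mean above the median gave 28.5% and 20.3%. Me1, the malic enzyme gene that supplies NADPH, rose by 0.93 ± 0.05, while the lipid droplet gene Plin2 fell by 0.96 ± 0.05 and the very long chain elongase gene Elovl4 by 0.97 ± 0.07, both on the log2 scale. Of 23 fatty acid oxidation genes, 4 rose and 9 fell, or 17.4% and 39.1%, so that the share that rose is near that of all genes. Ppargc1a, a coactivator of oxidative metabolism, fell by 1.87 ± 0.13 on the log2 scale, Decr1 by 0.48 ± 0.05 and Acaa2 by 0.40 ± 0.05, the latter 2 being enzymes of mitochondrial oxidation. Differences between these lists were not tested.

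Cell type markers changed in the same step, some by more than any of the 29 genes. Of 12 visceral endoderm markers 11 rose, from 0.04 in Rbp4, which was not called, to 3.39 in Lrp2. Of 9 fibroblast markers 7 fell, down to -2.30 in S100a4. All 4 epiblast markers rose. Of the primitive streak markers 3 rose and 1 fell among 6, and of the neural progenitor markers 3 rose and 1 fell among 5. Of the pluripotent cell markers 1 rose and 1 fell among 6 (16.7% each). Of the blood and endothelium markers 1 rose and 1 fell among 7 (14.3% each). Those last 2 lists are near the 17.8% higher and 16.9% lower of all genes. The part of these cell types in the changes of the 29 genes was not tested.

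DMSO with any added time against untreated EBs called none of the 29 genes in limma. Over all genes 0.537% were called higher and 0.211% lower, so that a count of none is close to this background. At an unadjusted p under 0.05 there were 2 higher, Mvk and Insig1, and 5 lower, Hmgcs1, Sqle, Insig2, Acaca and Elovl6. This is 24.1% of the 29 genes in all, against 16.3% of all genes and 20.5% of those with a mean above the median. The changes ran from -0.18 to 0.18 with a median of -0.04, where all genes had -0.02, and the 95% intervals of the 29 genes reached from -0.30 to 0.37. The ends of this range deserve their array values for the Srebf control genes. Insig2 read 10.32, 10.31 and 10.45 with DMSO, below all 3 EB arrays, for a change of -0.18 ± 0.05 (adjusted p = 0.134). Insig1 read 11.87, 11.81 and 11.93 with DMSO, above all 3 EB arrays, for a change of 0.17 ± 0.05 (adjusted p = 0.16).

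The other control genes were near their EB level after DMSO. Srebf2 read 11.76, 11.80 and 11.85, just above the EB arrays, at a change of 0.08 ± 0.04. Srebf1 read 10.40, 10.41 and 10.52, and Scap read 10.81, 10.85 and 10.86, both overlapping the EB arrays. Insig2 was called lower among genes above the median level alone and Insig1 higher with an intensity trend and a robust prior, 1 gene in each case, and none of the 29 was called when any single array was left out. Visceral endoderm markers were called higher with DMSO in 4 of 12 genes, against 0.537% of all genes, and their part was not tested.

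ATRA against DMSO, which share the solvent and the 12 h, called 7 of the 29 genes higher and none lower. That is 24.1% higher, against 6.26% higher and 7.05% lower over all genes, and against 7.77% and 11.2% over genes with a mean above the median. Of the 29 changes, 25 lay above 0, and the median was 0.10 where that of all genes was 0.01. At an unadjusted p under 0.05, 13 genes were higher and 0 lower, against 12.3% and 13.3% of all genes. The 3 and 3 arrays did not overlap in 18 genes with ATRA higher and in none with ATRA lower, against 19.6% and 20% of all genes. None of the 7 reached 1.5-fold.

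The called genes lay mostly in fatty acid synthesis and desaturation, with 2 of 4 and 3 of 4 genes. Elovl6 had the largest change, and its printed promoter window holds no match to the 4 motifs. Of the other called genes, Mvd had matches to the NF-Y and GC boxes and Fads2 to the GC box. For Acaca, Scd1, Fads1 and Fdps no match was found, but 7 of the 29 genes had no window to search. Any link of motifs to changes was not tested. Elovl6 read 12.32, 12.43 and 12.29 with DMSO and 12.81, 12.91 and 12.87 with ATRA, after 12.64, 12.64 and 12.52 in ES cells and 12.42, 12.47 and 12.55 in untreated EBs. All 3 ATRA arrays were above the other 9, and the rise over DMSO was 0.52 ± 0.06, or 1.43-fold (adjusted p = 4.91e-05).

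The array values of Acaca, Scd1 and Fads2 are also given, a choice made after their values were seen. Acaca read 10.69, 10.77 and 10.76 with DMSO and 11.19, 11.14 and 11.13 with ATRA, a rise of 0.41 ± 0.05 or 1.33-fold (adjusted p = 0.000111). Its ES arrays had read 11.26, 11.17 and 11.21 and its EB arrays 10.95, 10.81 and 10.88, so that the ATRA arrays overlapped the ES arrays, a pair of groups that was not tested. A second probe set of Acaca gave a rise of 0.40 (adjusted p = 0.00157 over all probe sets). The overlap with the ES arrays is that of the main probe set. The second probe set had fallen by 0.45 on the log2 scale in EBs, and with ATRA it lay 0.17 above untreated EBs. Scd1, which puts a double bond into stearate, read 13.04, 13.02 and 13.01 with DMSO and 13.28, 13.23 and 13.23 with ATRA, a rise of 0.22 ± 0.05 or 1.17-fold (adjusted p = 0.00648). Its 3 ATRA arrays were above all 9 others. Fads2 read 11.49, 11.44 and 11.46 with DMSO and 11.64, 11.68 and 11.68 with ATRA, a rise of 0.20 ± 0.04 or 1.15-fold (adjusted p = 0.00588). Fads2 was also highest with ATRA among the 4 groups.

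The remaining 3 calls were weaker. Fads1 rose by 0.15 ± 0.04, from a range of 12.01 to 12.06 with DMSO to one of 12.15 to 12.22 (adjusted p = 0.0281). In the mevalonate and isoprenoid steps Mvd rose by 0.25 ± 0.07, from 10.59 to 10.81 up to 10.93 to 10.99 (adjusted p = 0.0269), and Fdps by 0.20 ± 0.05, from 11.71 to 11.77 up to 11.93 to 11.95 (adjusted p = 0.0212). Fdps encodes the synthase whose product feeds both sterols and protein prenylation. In the same fatty acid groups, Acly at 0.13 ± 0.05 (adjusted p = 0.113), Scd2 at 0.12 ± 0.04 (adjusted p = 0.0915) and Fasn at 0.08 ± 0.05 (adjusted p = 0.337) were not called. Acly ranged from 11.87 to 11.96 with DMSO and from 12.04 to 12.05 with ATRA, and Scd2 from 13.61 to 13.64 and from 13.72 to 13.76, in both cases without overlap.

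Of the 9 squalene and sterol genes none was called with ATRA, and none was called among the 5 genes of Srebf control. Lss read 11.15, 11.22 and 11.32 with DMSO and 11.39, 11.44 and 11.38 with ATRA, higher in every ATRA array but not past the threshold (0.17 ± 0.06, adjusted p = 0.0938). Tm7sf2 read 10.55, 10.63 and 10.65 and then 10.61, 10.70 and 10.59, with overlapping groups and a change of 0.02 ± 0.05 whose 95% interval ran from -0.09 to 0.14. Sqle at -0.06 ± 0.04 and Cyp51 at -0.07 ± 0.09 lay below 0 without a call, as did Pmvk of the mevalonate steps at -0.07 ± 0.05. The 95% intervals of the 22 genes that were not called reached from -0.26 to 0.30. Each interval is for a single gene, so this range does not bound the 22 changes together.

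With ATRA, 4 of the 5 Srebf control genes lay above every DMSO array, and none was called. Srebf1 read 10.56, 10.59 and 10.57, above every DMSO array, at a change of 0.13 ± 0.05 (adjusted p = 0.139). Srebf2 read 11.89, 11.88 and 11.88, also above every DMSO array, at 0.08 ± 0.04 (adjusted p = 0.226). Scap read 10.94, 11.03 and 10.91, above every DMSO array, at 0.12 ± 0.05 (adjusted p = 0.136). None of these 3 shifts passed, although the arrays were separate in each. Insig2 read 10.50, 10.46 and 10.50, above the DMSO arrays and close to the untreated EB arrays, at 0.13 ± 0.05 (adjusted p = 0.156). Insig1 read 11.94, 11.81 and 11.81, overlapping DMSO, at -0.02 ± 0.05 (adjusted p = 0.881).

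Of the 7 calls, Elovl6, Acaca, Scd1 and Fads2 held under all 23 alternatives. Fads1 lost its call without any one of DMSO 1, DMSO 2, DMSO 3, ATRA 1 or ATRA 3 (changes of 0.14 to 0.16, adjusted p of 0.0525 to 0.121). Fdps (0.18 to 0.20) and Mvd (0.19 to 0.26) each lost it without any one of DMSO 1, DMSO 2 or the 3 ATRA arrays. The count of called genes was 4 without DMSO 1, DMSO 2, ATRA 1 or ATRA 3, and 5 without ATRA 2.

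**Figure D2:**
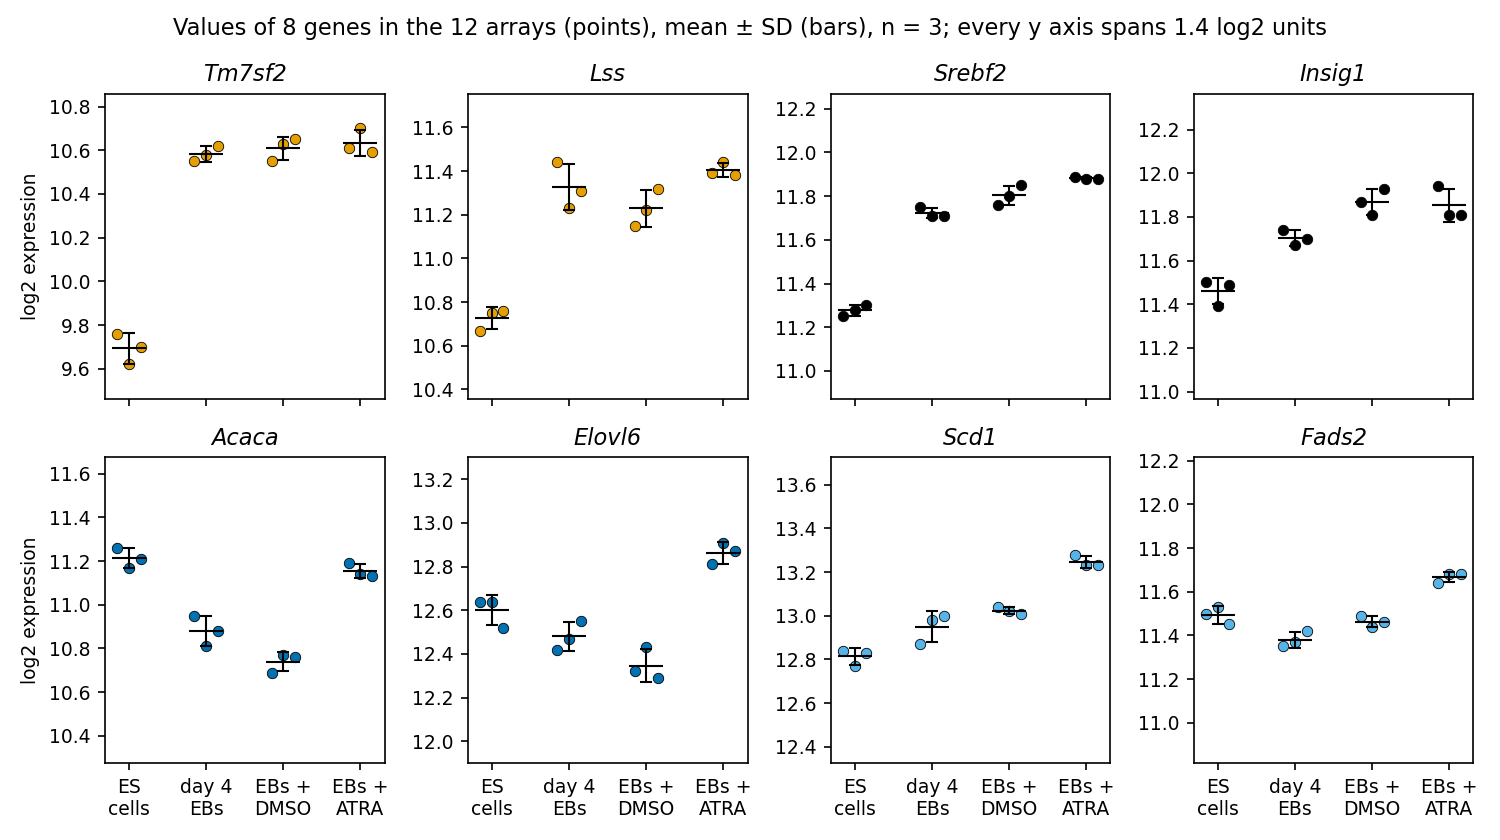
Log2 values (y axis, each panel spanning the same range) of 8 of the 29 genes in the 12 arrays by group (x axis), with points for single arrays and bars for the mean ± SD, n = 3. Tm7sf2, Lss, Srebf2 and Insig1 are lowest in the ES arrays, while Elovl6, Scd1 and Fads2 have their 3 highest values with ATRA and Acaca is lowest with DMSO.

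In the lists of related genes, ATRA against DMSO called 7 higher and 2 lower of the 31 other fatty acid and lipid synthesis genes. This is 22.6% and 6.45%. Elovl4 rose by 0.92 ± 0.07, or 1.89-fold, after its fall in EBs. Thrsp, a gene tied to lipogenesis, rose by 0.40 ± 0.06, and Acsl4, which activates arachidonic acid to its CoA ester, by 0.32 ± 0.05. Among the 23 fatty acid oxidation genes 2 rose and 1 fell: the carnitine carrier gene Slc25a20 rose by 0.44 ± 0.06, the carnitine palmitoyltransferase gene Cpt1a by 0.23 ± 0.04, and Acaa2 fell by 0.25 ± 0.05 on the log2 scale. These 8.70% higher and 4.35% lower of the oxidation genes are near the 6.26% and 7.05% of all genes.

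On the sterol side, 2 of 15 other sterol and Srebf control genes (13.3%) rose with ATRA and none fell, against 6.26% and 7.05% of all genes. The 2 that rose were Nfyb, a subunit of NF-Y, at 0.28 ± 0.06 (adjusted p = 0.00492), and Mbtps1 at 0.20 ± 0.05 (adjusted p = 0.0224). Mbtps1 is the gene of the protease that makes the first cut in Srebf. Of the 14 genes of sterol uptake, storage and efflux 1 rose and 4 fell, or 7.14% and 28.6%. Nceh1, a cholesteryl ester hydrolase gene, rose by 0.40 ± 0.05. Mylip, whose product marks lipoprotein receptors for degradation, fell by 0.44 ± 0.04 and Cav1 by 0.68 ± 0.07, both on the log2 scale.

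**Figure D3:**
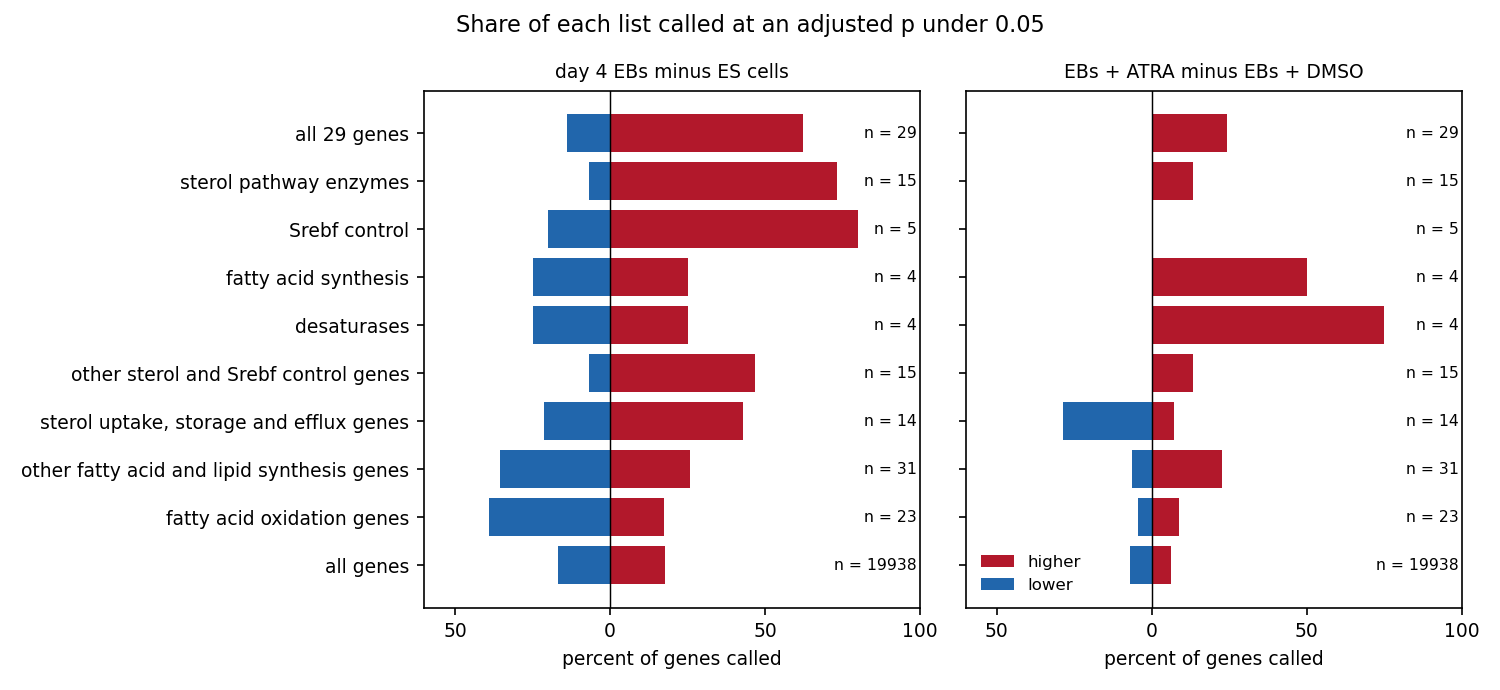
Percent of genes (x axis) called higher (right of 0) and lower (left of 0) at an adjusted p under 0.05 in each list (rows, with the number of genes), for day 4 EBs minus ES cells and for ATRA minus DMSO. The bottom row gives all 19938 genes. Sterol pathway enzymes had 11 of 15 higher in EBs, and desaturases 3 of 4 higher with ATRA.

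Cell type markers moved with ATRA as well. Of 12 visceral endoderm markers 6 fell and none rose, from -0.54 in Ttr to 0.07 in Rbp4, which was not called. All 4 epiblast markers fell, down to -2.17 in Otx2, and their mean over the list went from 10.05 to 10.10 over the DMSO arrays to 9.16 to 9.24 over the ATRA arrays. Of the pluripotent cell markers 3 of 6 fell, and of the fibroblast markers 3 fell and 1 rose among 9. Of the neural progenitor markers and of the blood and endothelium markers 1 rose and 1 fell in each list, and of the primitive streak markers 1 of 6 fell. Over all genes 6.26% rose and 7.05% fell, and in lists this short 1 gene is a large share. The part of these cell types in the changes of the fatty acid genes was not tested.

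ATRA against untreated EBs shares its arrays with the comparisons above and is given beside them as values. It called 11 of the 29 genes higher and 1 lower, or 37.9% and 3.45%, against 7.79% and 10.6% of all genes. Genes with a mean above the median gave 11.5% and 17.2%. Elovl6 rose by 0.38 ± 0.06, Scd1 by 0.29 ± 0.05, Fads2 by 0.29 ± 0.04, Acaca by 0.28 ± 0.05, Mvd by 0.29 ± 0.07 and Fdps by 0.22 ± 0.05. These 6 held under all 23 alternatives. The second probe set of Acaca was not called here, at 0.17 (adjusted p = 0.115 over all probe sets).

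Each of the other 6 calls of ATRA against untreated EBs ended when single arrays were left out. Mvk at 0.18 (adjusted p = 0.0265) lost its call without any one of EB 2, EB 3, ATRA 1 or ATRA 2 (0.15 to 0.19), and Srebf1 at 0.18 (adjusted p = 0.0354) without any one of EB 2, EB 3 or the 3 ATRA arrays (0.15 to 0.18). Acly at 0.17 (adjusted p = 0.0374) lost it without any one of ES 3, EB 2, EB 3, DMSO 2 or the 3 ATRA arrays (0.13 to 0.17). Scd2 at 0.15 (adjusted p = 0.0248) lost it without any one of EB 1, EB 2 or the 3 ATRA arrays (0.14 to 0.16), and Srebf2 at 0.17 (adjusted p = 0.014) without EB 3 or ATRA 1 (0.16 in both). Sqle, the one gene called lower, at -0.15 ± 0.04 (adjusted p = 0.025), lost it without any one of EB 1, EB 3, ATRA 1 or ATRA 2 (-0.15 to -0.13). Pmvk, not called with all arrays, was called lower without EB 2 (-0.17) and under 4 other alternatives (-0.17 to -0.14). The count of higher genes was 6 without ATRA 1 and 7 without EB 2, EB 3 or ATRA 2.

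EBs against ES cells and ATRA against DMSO share no array, and their changes can be set against each other gene by gene. Across the 29 genes, Pearson's r was -0.45 and Spearman's rho -0.43, where all 19938 genes gave r = -0.26. This is a description across genes, which are not independent replicates. Of the 18 genes that rose in EBs, Mvd and Scd1 were also called higher with ATRA and 16 were not called. Of the 4 that fell, Acaca and Fads2 rose with ATRA, and Pmvk and Scap were not called. Elovl6, Fdps and Fads1 were called with ATRA alone. Whether the change of a gene differed between the 2 comparisons was not tested.

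**Figure D4:**
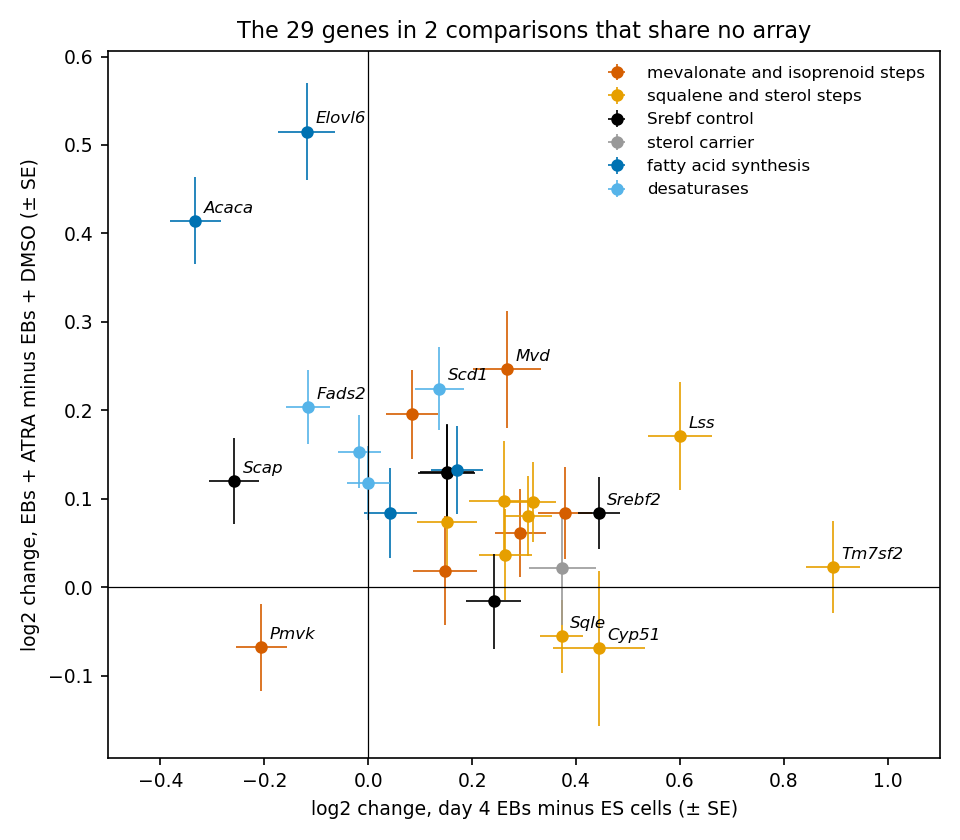
Log2 change in day 4 EBs minus ES cells (x axis) against log2 change in ATRA minus DMSO (y axis) for the 29 genes, coloured by role, with bars of ± SE, n = 3 arrays a group. Tm7sf2 and Lss lie far to the right, Elovl6 and Acaca lie at the upper left, and Pmvk is below 0 on both axes without a call with ATRA.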

How the data were processed

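Total RNA of 12 samples was extracted with an RNeasy kit and turned into biotinylated single-stranded cDNA with the Ambion WT Expression kit, per the labels' protocols, and hybridised to Affymetrix arrays. The authors deposited a table of log2 values for 35556 probe sets. The log2 scale is inferred from values of 2.30 to 14.74. How the values were background-corrected, normalized and summarized is not given in the sources used here. An array normalization hides changes of total RNA per cell.

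Of the probe sets, 21789 carried 1 symbol in the platform annotation, 1621 several and 12146 none. Those with 1 symbol gave 19938 genes, each by its probe set with the highest mean, without a filter on low values. Group means of the 4 groups were fitted over all 12 arrays with limma 3.58.1 (R 4.3.3). Contrasts were moderated by eBayes at its defaults, with 3.93 prior and 8 residual degrees of freedom. Tests were two-sided, and p-values were adjusted by the Benjamini-Hochberg method over all genes, with a threshold of 0.05.

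The members and the lists of related genes and markers were chosen with earlier results of these data known. Every member may be named. Single array values are given for the 5 Srebf control genes and for members called with a log2 change of at least 0.5, and beyond this rule for Acaca, Scd1 and Fads2. Of each related list, the 3 called genes with the smallest adjusted p in a comparison may be named, and of each marker list its highest and lowest change. The code was tested on simulated data for ATRA against DMSO over 19938 genes. For log2 changes of 0.25, 0.5, 1 and 2 it recovered 34%, 84%, 98% and 100% of the genes set to change, with 10 false among 168 calls. Alternatives were quantile normalization, median centring, a filter on mean value, other uses of a gene's probe sets, array weights, a robust prior with an intensity trend, a fit of only the 2 groups in question, a block for the replicate number, arrays left out, and a threshold of 0.01.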

Additional observations from a re-analysis of the deposited data

How the results depend on the processing

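No change of direction was found among called genes under any of the 23 alternatives. For EBs against ES cells the count of higher genes ran from 13 to 21 and that of lower genes from 3 to 5, and the median change of the 29 genes was 0.23 after median centring. For DMSO against EBs, 1 gene was called lower among genes above the median level and 1 higher with an intensity trend. Over all genes that comparison called 149, against 253 after quantile normalization, 761 among genes above the median level, 626 with an intensity trend, 25 with only the 2 groups, 5 at an adjusted p of 0.01, 27 without ES 2 and EB 2 together, and 0 to 237 with single arrays left out. For ATRA against DMSO, array weights gave 12 genes higher and an adjusted p of 0.01 gave 4, leaving out single arrays gave 4 to 7, and over all genes the counts were 4311 and 1605 against 2655. For ATRA against EBs, the count of higher genes was 6 at an adjusted p of 0.01 and 7 without ES 2 and EB 2 together, and 6 to 11 with single arrays left out. Its count of lower genes was 2 among genes above the median level, with an intensity trend and with array weights, 0 with only the 2 groups or at an adjusted p of 0.01, and 0 to 2 with single arrays left out. An adjusted p of 0.01 called 2126 of all genes there. A lower threshold calls fewer genes by construction, and the causes of the other shifts were not tested. Across all groups, deviations of arrays with the same replicate number correlated at -0.13 to 0.51 (median 0.0016, 18 pairs). Those with different numbers correlated at -0.51 to 0.31 (median -0.02, 36 pairs). The widest values were between ES and EB arrays. With the same number these were 0.30 for replicate 1, 0.51 for replicate 2 and -0.07 for replicate 3. With different numbers they ran from -0.51 (ES 1 and EB 2) to 0.31 (ES 1 and EB 3). Whether the numbers pair ES with EB samples was not tested. With the replicate number as a block, 15 genes were higher and 3 lower in EBs, 7 higher with ATRA against DMSO, and 10 higher and 1 lower with ATRA against EBs, and DMSO against EBs called 62 of all genes and none of the 29.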
